A study of Mus musculus with 6 samples.

Results

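The Id genes encode inhibitors of basic helix-loop-helix (bHLH) transcription factors, and 4 of them, Id1, Id2, Id3 and Id4, were followed here on 6 arrays of mouse myoblasts. They were taken as every probe set that the array's annotation assigned to a single one of these symbols. Each of the 4 genes had 1 probe set, so 4 of the 8251 genes with a probe set of their own are described. The cells were C2AS12, a C2-derived mouse myoblast line, and all 6 samples carried recombinant adenovirus for p300, a histone acetyltransferase and coactivator that MyoD recruits. At 24 h in low-serum differentiation medium (DM) there was 1 array with wild-type p300 and doxycycline, 1 with mutant p300 and 1 with wild-type p300 alone. At 0 h, before DM, there was again 1 array for each of these treatments. The submitters give apoptotic death as the outcome with doxycycline and with mutant p300, and survival with wild-type p300 alone. Neither the mutation nor the action of doxycycline is stated in the labels, every value comes from a single cell line, and no uninfected array was analysed here.

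Id proteins carry the helix-loop-helix domain through which bHLH factors pair, but lack the basic region that touches DNA. They pair with the E proteins, the general partners of MyoD, Myf5 and myogenin, and so keep these factors off the E-boxes of muscle promoters. In myoblasts Id genes are known to be active during growth and to be turned down when serum is withdrawn. Signalling by bone morphogenetic proteins (BMPs) through Smad1 and Smad5 is a known activator of Id1, Id2 and Id3, and Id2 protein also binds the retinoblastoma protein.

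The signals are linear array units, scaled by the submitters to a trimmed mean of 200.1 on each array. Of the 4 genes, 3 passed the filter on dim probe sets (a mean signal over the 6 arrays of at least 75.2), and Id4, with a mean of 41.2, did not and was not tested. A floor of 16.4, the 25th percentile over the whole table, was applied before log2, and no Id signal was that low, though 23.3% to 26.5% of an array's probe sets were. The number of arrays limits the precision, and there was 1 for each treatment and time. The submitters call the 6 samples biological replicates, but the labels do not name separate cultures for them. The p-values thus reflect the spread between these samples, not that between known separate cultures. For the change over time, n = 3 counts the 3 treatments, not replicates. A gene's own residual in that fit is the spread of its change over the treatments, with 2 degrees of freedom. Limma also pools the variance of each probe set with that of the other tested probe sets. Its p-values and intervals therefore do not follow from the SD printed beside them alone. All 7 measured myoblast markers, among them Myod1, Myf5, Des and Cdh15, passed the filter. Of 23 measured markers of leukocytes, endothelium, adipocytes, epithelium and smooth muscle, 5 did (Cd14, Cd68, Lep, Cdh1 and Acta2), and Ptprc, Lyz2, Adgre1, Itgam, Cdh5, Epcam, Myh11 and Cnn1 lay under the floor on all arrays. The summed signal of these 23 was 4844 with doxycycline, 4821 with mutant p300 and 3901 with wild-type p300 at 24 h, against 3852, 3041 and 3120 at 0 h, with most of it from the smooth muscle list, in which Acta2 alone was above the floor. The ratio of the 3′ to the 5′ actin control was 1.45, 1.49 and 1.33 at 24 h, against 1.30, 1.34 and 1.33 at 0 h. The part of either in the Id changes was not tested.

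Id1, Id2 and Id3 all fell over 24 h in DM, in every treatment. The comparison of 24 h with 0 h asked how the Id genes changed after the cells were moved to DM. Time in culture and the medium cannot be told apart, since no array was taken at 24 h without DM, and in bulk RNA fewer expressing cells and less RNA per cell cannot be told apart. Of the 3 tested Id genes 3 were called lower at 24 h by limma (adjusted p under 0.05), against 9.0% of the 6212 tested probe sets called lower and 7.24% called higher.

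Id2, whose protein pairs with E proteins and with the retinoblastoma protein, had the largest fall. It read 177.3 with doxycycline, 217.0 with mutant p300 and 181.2 with wild-type p300 at 24 h, against 877.6, 580.6 and 531.2 in the same treatments at 0 h. The 24 h arrays all lay below the 0 h arrays, and the doxycycline array at 0 h stood above the other 5. The mean change over the 3 treatments was -1.76 ± 0.48 on the log2 scale (SD, n = 3; limma adjusted p = 0.000319), with a 95% interval of -2.14 to -1.38. Signals at 0 h were 4.95 times those at 24 h with doxycycline, 2.68 times with mutant p300 and 2.93 times with wild-type p300. Of the 6212 tested probe sets, 59 fell by more, and 1.59% fell at least 2-fold in all 3 treatments, as Id2 did and Id1 and Id3 did not.

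Id1, the Id gene best known as a direct BMP target, read 215.9 with doxycycline, 273.2 with mutant p300 and 266.7 with wild-type p300 at 24 h, against 567.6, 652.3 and 526.0 at 0 h. The times did not overlap. Within a time the ratios between arrays went as far as 0.79 (doxycycline over mutant p300 at 24 h) and 1.24 (mutant p300 over wild type at 0 h). The mean change was -1.21 ± 0.21 (SD, n = 3; limma adjusted p = 0.000295), with a 95% interval of -1.47 to -0.95. The signal at 0 h was 2.63, 2.39 and 1.97 times that at 24 h with doxycycline, mutant p300 and wild-type p300. A larger fall was found for 111 of the tested probe sets.

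Id3, a serum-responsive member, read 525.5 with doxycycline, 533.3 with mutant p300 and 490.7 with wild-type p300 at 24 h, against 1110.0, 943.8 and 752.8 at 0 h. Here too no array at 24 h reached the lowest at 0 h. The mean change was -0.84 ± 0.23 (SD, n = 3; limma adjusted p = 0.00156), with a 95% interval of -1.09 to -0.59. Signals at 0 h were 2.11, 1.77 and 1.53 times those at 24 h with doxycycline, mutant p300 and wild-type p300, and 200 tested probe sets fell by more. The complete separation of the times seen for these 3 genes was found for 15.5% of the tested probe sets in this direction and for 12.7% in the other.

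Id4, a member known mainly from the nervous system and the male germ line, was near the low end of the signal range. It read 34.1 with doxycycline, 32.8 with mutant p300 and 45.4 with wild-type p300 at 24 h, against 48.9, 49.8 and 36.4 at 0 h. The times overlapped. The mean change was -0.27 ± 0.51 (SD, n = 3), with no test in the filtered fit, and ran from -0.56 without a wild-type array to -0.10 without a mutant array; with all 12422 probe sets in the limma fit its adjusted p was 0.725.

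**Figure D1:**
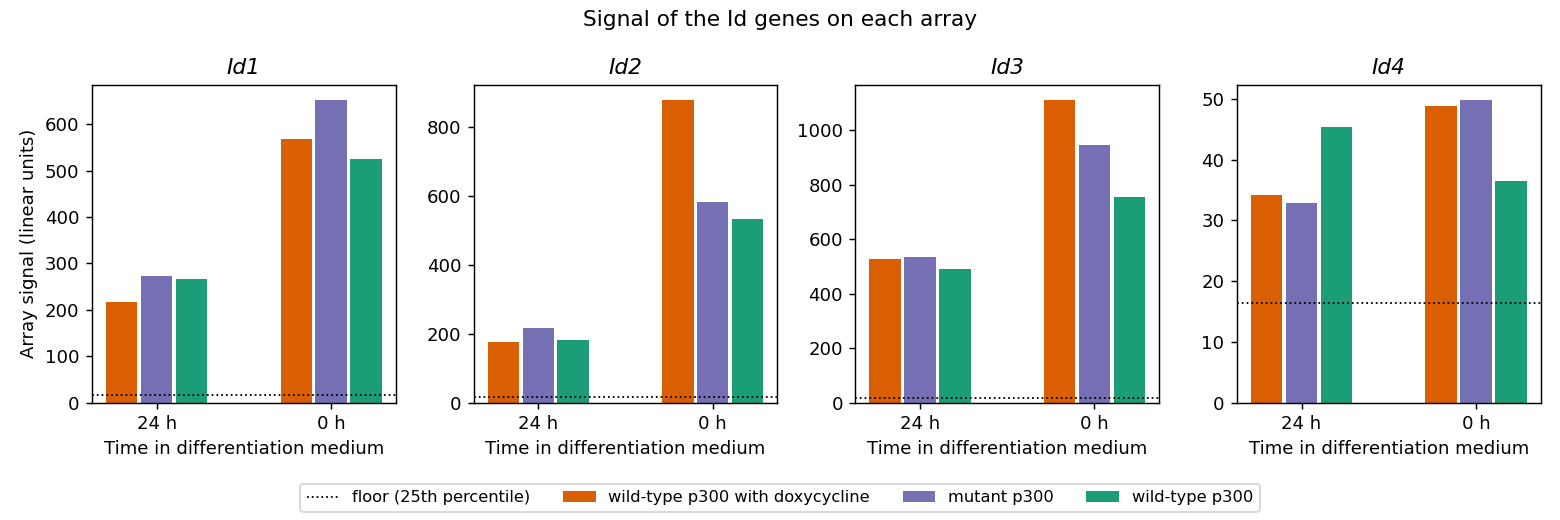
Linear array signal (y axis, each panel with its own scale) of Id1, Id2, Id3 and Id4 at 24 h and 0 h, 1 bar for each array, coloured by treatment; the dotted line is the floor of 16.4. For Id1, Id2 and Id3 every bar at 24 h is lower than every bar at 0 h, while Id4 reads between 32.8 and 49.8 with overlapping times.

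The falls of Id1, Id2 and Id3 held under both other scalings. They also held without any 1 of the 6 arrays, with the highest limma adjusted p among those fits at 0.0189. With treatment as a block, leaving out 1 array removed the change of its whole treatment. Both arrays of a treatment thus gave the same change, and each of these fits rests on the other treatments only. The calls were lost when the filter on dim probe sets was dropped, with adjusted p of 0.102 for Id1, 0.142 for Id2 and 0.144 for Id3; that fit called 0 of 12422 probe sets, with 2030 at an unadjusted p under 0.05.

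The size of the fall differed among the Id genes and among treatments. In each of the 3 treatments the fall was greatest for Id2, then Id1, then Id3. With doxycycline the changes were -2.31, -1.39 and -1.08 for Id2, Id1 and Id3, with mutant p300 -1.42, -1.26 and -0.82, and with wild-type p300 -1.55, -0.98 and -0.62 on the log2 scale. The doxycycline treatment thus had the most negative change for all 3 genes, as it did for 36.9% of the 559 probe sets that fell. For Id2 the treatments lay closer together at 24 h than at 0 h, where the doxycycline array stood apart.

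**Figure D2:**
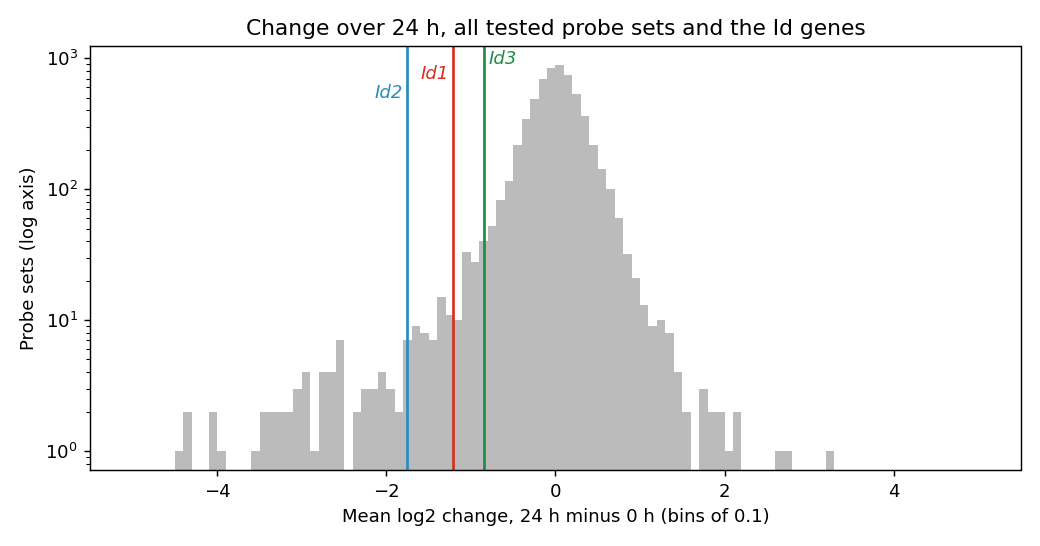
Histogram of the mean log2 change over the 3 treatments, 24 h minus 0 h, for the 6212 tested probe sets (bins of 0.1, log count axis), with vertical lines at Id1, Id2 and Id3. Id2 at -1.76, Id1 at -1.21 and Id3 at -0.84 all lie in the lower tail, beyond which 59, 111 and 200 probe sets lie.

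At 0 h the Id genes read higher in the treatments given as dying, but no difference passed the test. The comparison of the doxycycline and mutant arrays with the wild-type array asked whether Id levels went with the outcome before DM was added. For all 4 Id genes both arrays lay above the wild-type array, an arrangement that 37.0% of the tested probe sets shared, where 32.1% had both below it. Id3 differed by 0.44 on the log2 scale (doxycycline and mutant minus wild type; 95% interval 0.04 to 0.84; unadjusted p = 0.0333, limma adjusted p = 0.999). Id2 differed by 0.43 (interval -0.18 to 1.03; adjusted p = 0.999) and Id1 by 0.21 (interval -0.27 to 0.69; adjusted p = 0.999). Limma called 0.0% of the probe sets in either direction here, with 262 at an unadjusted p under 0.05. In these fits the lone wild-type array of a time was assumed to vary like the others. A gene's own residual came only from the difference between the doxycycline and mutant arrays of a time, taken as replicates of the same outcome. The p-values and intervals here, at 24 h and in the interaction thus rest on a difference between treatments, not on replicate variation. The Id2 difference rested on doxycycline: it was 0.72 without the mutant array and 0.13 without the doxycycline array.

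Set against each other singly, with no test, the doxycycline and wild-type arrays at 0 h differed most for Id2, with a ratio of 1.65, and for Id3, with 1.47. A ratio at least as high was found for 1.42% and 3.11% of the tested probe sets. Id2 was also 1.51 times higher with doxycycline than with mutant p300 at 0 h, a ratio reached by 2.82% of the probe sets. Mutant over wild type at 0 h came to 1.24 for Id1, 1.09 for Id2, 1.25 for Id3 and 1.37 for Id4. None of these reached 2-fold, which between 0.451% and 0.901% of the tested probe sets did in a given direction and pair of arrays at 0 h.

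At 24 h the Id genes did not differ detectably between the outcomes. Doxycycline and mutant minus wild type was -0.14 for Id1 (95% interval -0.62 to 0.35; limma adjusted p = 0.871), 0.11 for Id2 (interval -0.49 to 0.72; adjusted p = 0.921) and 0.11 for Id3 (interval -0.29 to 0.51; adjusted p = 0.874). Limma called 0 of the 3 tested Id genes, against 0.0483% of probe sets higher and 0.724% lower. With the signals as deposited, the intervals leave room for differences of up to 0.72 on the log2 scale, so equal levels are not shown. Scaling to the spike-in controls, which read lowest in the wild-type array at 24 h (-0.18 from the mean of the arrays, log2, against 0.13 with doxycycline and 0.23 with mutant p300), turned the sign for Id2 and Id3, to -0.25 and -0.26, and moved Id1 to -0.50 (SE 0.245; limma adjusted p = 0.231) and the median of all tested probe sets to -0.32. At 24 h both arrays lay above the wild-type array for Id3, as for 39.6% of the tested probe sets, and both below it for Id4, as for 28.4%, with Id1 and Id2 in between. Singly, the ratios at 24 h ran from 0.79 (Id1, doxycycline over mutant) to 1.20 (Id2, mutant over wild type) among the tested Id genes. No Id gene was 2-fold apart in any pair at 24 h. Doxycycline was at least 2-fold above wild type for 1.27% of the tested probe sets and below it for 2.66%. Mutant p300 was so far above wild type for 0.885% and below it for 2.56%, and doxycycline above mutant p300 for 1.34% and below it for 0.934%.

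Whether the response to DM differed between the outcomes was tested as an interaction. The mean change with doxycycline and mutant p300 minus that with wild-type p300 was -0.35 for Id1, -0.31 for Id2 and -0.33 for Id3, with 95% intervals of -1.03 to 0.34, -1.17 to 0.54 and -0.90 to 0.23. None was called by limma, which called 0.0% of probe sets in either direction, with 197 at an unadjusted p under 0.05. Without the doxycycline array at 0 h the value for Id2 was -0.014. Leaving out 1 array gave -0.61 to -0.014 for Id2 and -0.45 to -0.22 for Id3, with the ends set by dropping the mutant or the doxycycline array of 0 h. For Id1 the range was -0.51 to -0.18, its ends set by dropping those of 24 h. Id4, whose change was above 0 with wild-type p300 and below 0 with the others, shared that arrangement with 7.52% of the tested probe sets and 6.13% of all probe sets. Spike-in scaling gave -0.76, -0.72 and -0.75 for Id1, Id2 and Id3, with the median of all tested probe sets at -0.38 and limma adjusted p between 0.379 and 0.445.

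The promoters of 3 of the 4 Id genes were matched in RefSeq's mouse assembly GRCm38.p6, and are shown with that of Myog because Id2 and Id3 fell while Myog, a gene with E-box control, rose. Each runs 5′ to 3′ from 250 bases before to 50 after the gene's start. Capitals mark GGCGCC, a motif of BMP-responsive Id enhancers, and the letters GTCT or AGAC, which Smads are known to bind, in the Id genes, and the E-box CANNTG in Myog, all searched on both strands. Id2 lies at chr12:25096043-25096342 (minus strand), Id3 at chr4:136143572-136143871 (plus), Id4 at chr13:48260866-48261165 (plus) and Myog at chr1:134289754-134290053 (plus).
Id2: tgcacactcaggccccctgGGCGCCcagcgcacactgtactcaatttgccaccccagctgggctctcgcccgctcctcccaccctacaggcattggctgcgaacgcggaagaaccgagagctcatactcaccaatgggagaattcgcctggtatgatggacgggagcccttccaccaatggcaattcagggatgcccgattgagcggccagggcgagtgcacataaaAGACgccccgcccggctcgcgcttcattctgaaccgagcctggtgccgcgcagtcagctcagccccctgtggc
Id3: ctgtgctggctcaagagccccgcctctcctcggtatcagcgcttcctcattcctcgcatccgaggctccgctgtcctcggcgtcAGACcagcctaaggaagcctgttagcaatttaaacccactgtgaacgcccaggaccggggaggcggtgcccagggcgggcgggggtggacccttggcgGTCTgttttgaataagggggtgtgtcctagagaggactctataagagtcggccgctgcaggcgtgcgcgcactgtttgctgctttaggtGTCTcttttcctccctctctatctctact
Id4: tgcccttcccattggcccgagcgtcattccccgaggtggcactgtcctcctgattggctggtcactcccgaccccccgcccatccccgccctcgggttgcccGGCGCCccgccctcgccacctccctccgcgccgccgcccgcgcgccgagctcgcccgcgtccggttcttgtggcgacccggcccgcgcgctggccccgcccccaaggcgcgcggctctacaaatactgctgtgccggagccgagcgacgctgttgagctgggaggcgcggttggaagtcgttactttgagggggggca
Myog: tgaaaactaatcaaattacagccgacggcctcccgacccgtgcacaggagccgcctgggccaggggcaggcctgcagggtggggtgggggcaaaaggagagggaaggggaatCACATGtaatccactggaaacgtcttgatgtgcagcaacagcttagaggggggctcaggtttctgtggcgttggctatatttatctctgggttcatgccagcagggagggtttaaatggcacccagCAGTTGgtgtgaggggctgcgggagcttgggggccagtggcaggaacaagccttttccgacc

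GGCGCC occurred 1 time in the Id2 and 1 time in the Id4 window and 0 times in that of Id3, and 11.9% of 32851 promoter windows of this length held it. GTCT or AGAC occurred 3 times for Id3, 1 time for Id2 and 0 times for Id4, and 88.0% of all windows held it. CCAAT or its reverse ATTGG occurred 3 times for Id2, 2 times for Id4 and 0 times for Id3, against 37.4% of windows with at least 1. The GC box GGGCGG or CCGCCC was present in all 3 Id windows, with 5 matches for Id4, 2 for Id3 and 1 for Id2, against 35.7% of windows; the windows of Id4, Id2 and Id3 were 73.3%, 63.3% and 60.0% G and C, where the median window had 52.7%. The Myog window held 2 E-boxes, CACATG and CAGTTG, and 72.3% of windows held at least 1. The Id2 window also held 1 CANNTG, and the Myog window 1 GTCT or AGAC, neither of them in capitals above. These are matches of letters only, and no binding was measured. Enhancers outside these windows were not searched, so a count of 0 holds for the window alone.

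The genes whose signal ran most like that of each Id gene over the 6 arrays were named by Pearson's r of log2 signal, among 837 tested genes that ranged over at least 2-fold. With 3 arrays at each time and a large time change, r is set mainly by time, and it is given as a description. For Id1 these were Ranbp1 (r = 0.999), Pgam1 (0.997), Mcm4 (0.996), Wars (0.995) and Pcna (0.993), of which Mcm4 and Pcna serve DNA replication and Pgam1 glycolysis. Like Id1, all 5 read highest at 0 h with mutant p300 and lowest at 24 h with doxycycline. For Id2 they were Tyms-ps (0.989), Dnajc9 (0.986), Nusap1 (0.981), Id3 (0.980) and Selenoh (0.980), and for Id3 they were Pola2, a subunit of DNA polymerase alpha (0.992), Dek (0.982), Id2 (0.980), Haus3 (0.967) and Tyms-ps (0.967). Id2 and Id3 thus stood among each other's nearest patterns, both highest in the doxycycline array at 0 h, and Id1 was not among them. Tyms-ps is annotated as a pseudogene of thymidylate synthase, so its probe set may read the parent gene.

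The factors that Id proteins act on were called in part. Among the myogenic bHLH factors, 1 of 3 tested rose and 0 fell, and among the E proteins 2 of 3 rose and 0 fell, beside medians of 0.06 and 0.43 on the log2 scale and of 0.01 over all 4822 tested genes. Over all tested genes 7.67% rose and 9.33% fell, the share beside which each count of a list stands. Myog, which drives late differentiation, read 296.4 with doxycycline, 175.7 with mutant p300 and 177.3 with wild-type p300 at 24 h, against 63.5, 37.6 and 40.0 at 0 h. Its change of 2.20 ± 0.04 (SD, n = 3; limma adjusted p = 0.000119) was nearly the same in the 3 treatments, where that of Id2 spread by 0.48. Myod1, the determination factor and a partner of E proteins, changed by 0.06 ± 0.32 (adjusted p = 0.785), with 813.0, 732.1 and 419.1 at 24 h in the same order, against 711.5, 593.6 and 517.6 at 0 h. Its signal was highest with doxycycline at both times; doxycycline and mutant minus wild type was 0.88 at 24 h (limma adjusted p = 0.0898). Myf5, the other determination factor, changed by -0.13 ± 0.28 (adjusted p = 0.618). Myf6, a late myogenic factor, was under the filter and read 48.1, 43.9 and 40.2 at 24 h, against 27.1, 13.3 and 10.8 at 0 h, the last pair under the floor.

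Tcf4, which encodes the E protein E2-2, read 1481.8 with doxycycline, 1155.2 with mutant p300 and 1075.2 with wild-type p300 at 24 h, against 741.3, 578.5 and 614.3 at 0 h. The arrays at 24 h all lay above those at 0 h, as for 12.7% of the tested probe sets. The change was 0.93 ± 0.11 (SD, n = 3, limma adjusted p = 0.000335). Tcf12, which encodes HEB, rose by 0.43 ± 0.07 (adjusted p = 0.0121), with 1506.6, 1317.6 and 1370.2 at 24 h against 1075.5, 960.8 and 1075.1 at 0 h. Tcf3, the gene of E12 and E47, read between 104.5 and 123.9 on all 6 arrays, a change of 0.04 ± 0.18 (adjusted p = 0.905). The call of Tcf12 was lost with spike-in scaling (adjusted p = 0.363), without the variance trend (0.0554) and without any 1 of the doxycycline or mutant arrays (0.0703 to 0.0809). Without the filter both lost it, at 0.106 for Tcf12 and 0.086 for Tcf4, and Tcf4 kept its call in the other alternatives run. The Tcf12 probe set is of a type that can read related transcripts.

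**Figure D3:**
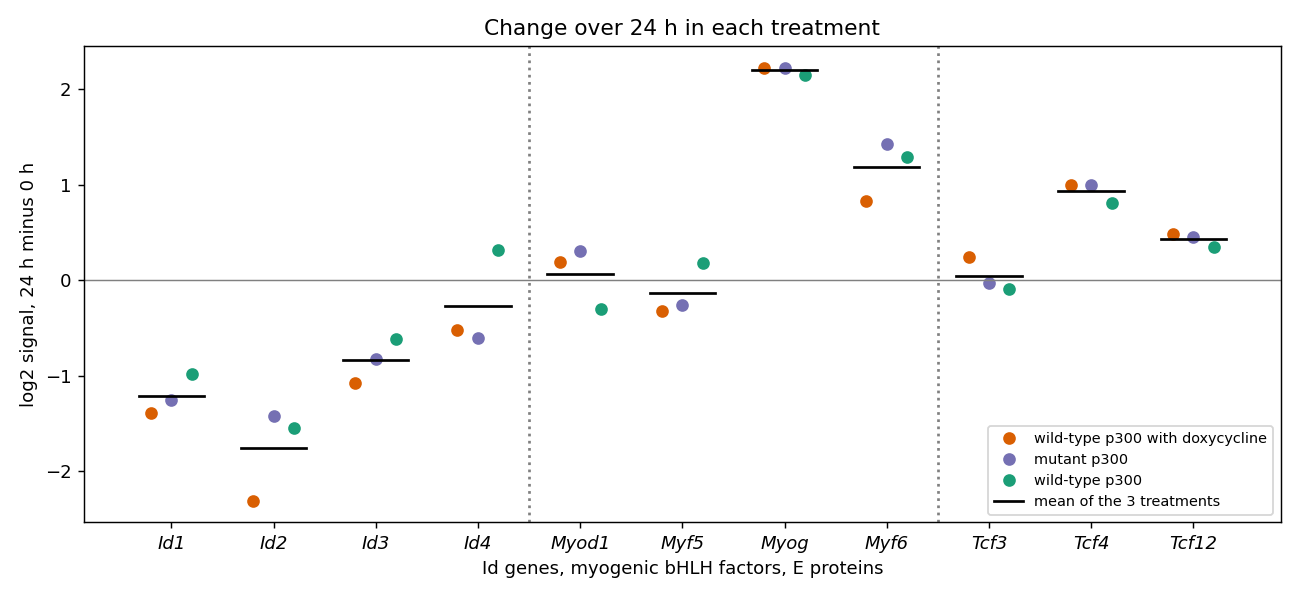
Change in log2 signal, 24 h minus 0 h, for the Id genes, the myogenic bHLH factors and the E proteins, with 1 point for each treatment and a bar at the mean of the 3. Id1, Id2 and Id3 lie below 0 in every treatment, Myog, Tcf4 and Tcf12 above 0 in every treatment, and Id4, Myod1 and Myf5 have wild-type p300 on the other side of 0 from doxycycline and mutant p300.

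Of 22 tested muscle genes with E-box control, 16 rose and 0 fell, with a median of 0.63, beside 0.01 over all tested genes. The largest changes besides Myog were those of Tnnt1, slow troponin T, at 2.70 ± 0.43, Myl1, a fast myosin light chain, at 2.68 ± 0.50, Ryr1, the calcium release channel, at 1.91 ± 0.31 and Acta1, skeletal actin, at 1.15 ± 0.36 (SD, n = 3). A second probe set of Tnnt1 read between 87.5 and 167.1 on all arrays and was not called. The count of 16 became 9 without either doxycycline array, 9 or 10 without a mutant array, 17 or 18 without a wild-type array, 9 with spike-in scaling and 8 with no treatment block.

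Among genes of the BMP and TGF-beta pathway, none of those tested was called lower. Of 11 tested ligands and antagonists 5 rose and 0 fell: Inhbb, an activin subunit, by 1.06 ± 0.50, Bmp4, a ligand that can induce Id genes, by 0.91 ± 0.27, Tgfb2 by 0.83 ± 0.29, Tgfb1 by 0.63 ± 0.14 and Bmp1, a procollagen protease, by 0.45 ± 0.13 (SD, n = 3, limma). Bmp4 read 313.2 with doxycycline, 332.1 with mutant p300 and 314.6 with wild-type p300 at 24 h, against 199.1, 145.1 and 169.2 at 0 h. A second, dimmer probe set of it, which read between 51.9 and 204.3, rose by 1.43 ± 0.47. The brighter probe set is, like that of Tcf12, of a type that can read related transcripts. The Bmp4 signals at 24 h all lay above those at 0 h, an arrangement shared by 12.7% of the tested probe sets. These are RNA signals, and a link between Bmp4 and the Id genes was not tested. Of 6 tested receptors 1 rose, the activin receptor gene Acvr2b by 0.68 ± 0.35, and 0 fell. Of 7 tested Smads and regulators 2 rose, the corepressor genes Tgif1 by 0.41 ± 0.12 and Ski by 0.40 ± 0.06, and 0 fell.

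Smad6, an inhibitory Smad that BMP signalling is known to induce, read 146.8 with doxycycline, 130.1 with mutant p300 and 124.6 with wild-type p300 at 24 h, against 198.5, 179.0 and 167.8 at 0 h. All arrays at 24 h lay below those at 0 h, an arrangement shared by 15.5% of the tested probe sets. The change was -0.44 ± 0.02 (SD, n = 3), but it missed the threshold (limma adjusted p = 0.057). Bambi, another BMP target, was not analysed here. Smad7, a second inhibitory Smad, changed by -0.33 ± 0.69 (adjusted p = 0.395), with 184.6, 130.7 and 113.1 at 24 h against 173.3, 126.1 and 247.4 at 0 h. Of 14 tested factors known to act on Id promoters 4 rose and 0 fell: Egr1 by 0.73 ± 0.15, Yy1 by 0.65 ± 0.06, Crebbp, the paralog of p300, by 0.59 ± 0.19 and Ets2 by 0.53 ± 0.10. Stat3 was not called by its brightest probe set (limma adjusted p = 0.0521). A second probe set of Stat3 rose by 0.68 ± 0.12 (adjusted p = 0.00302). The second tested probe sets of Stat5a and Hif1a were not called. Without 1 array the number of ligands and antagonists that rose ran from 1 (without either mutant array) to 4, that of receptors from 0 (without any doxycycline or mutant array) to 2, that of Smads and regulators from 0 (without either mutant array) to 2 and that of promoter factors from 2 (without the mutant array at 24 h) to 5. With spike-in scaling 2, 0, 0 and 1 rose. The counts of 1 of 6 receptors and 2 of 7 Smads and regulators stand beside 7.67% of all tested genes, and nothing particular to these lists is read from them. Without the variance trend 0 of the Smads and regulators rose and 1 fell.

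Cell cycle genes tied to Id2 and the retinoblastoma protein fell in part. Of 12 tested pocket protein, inhibitor and G1 genes, 4 fell and 1 rose, with a median of -0.13. Cdkn2d fell by 2.16 ± 1.42, the pocket protein gene Rbl1 by 1.24 ± 0.17, the cyclin genes Ccnd1 by 0.68 ± 0.41 and Ccne1 by 0.52 ± 0.27 on the log2 scale (SD, n = 3, limma), and Cdkn1a, the gene of the inhibitor p21, rose by 0.65 ± 0.24. Of 15 tested other bHLH and HLH genes 3 rose, Zeb1 by 0.61 ± 0.16, Hes6 by 0.55 ± 0.02 and Mxd4 by 0.42 ± 0.10, and 1 fell, Mxd3, a partner of Max, by 2.68 ± 0.44. Mxd3 read 25.5, 17.0 and 20.4 at 24 h with doxycycline, mutant p300 and wild-type p300, against 144.4, 154.5 and 104.1 at 0 h. Without a doxycycline or a mutant array, and with no treatment block or variance trend, 2 of the cell cycle genes fell. Without a mutant array, or with spike-in scaling, 0 of the other bHLH genes and 0 of the cell cycle genes rose. In none of the 9 lists was a gene called between the outcomes at 24 h, at 0 h or in the interaction.

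**Figure D4:**
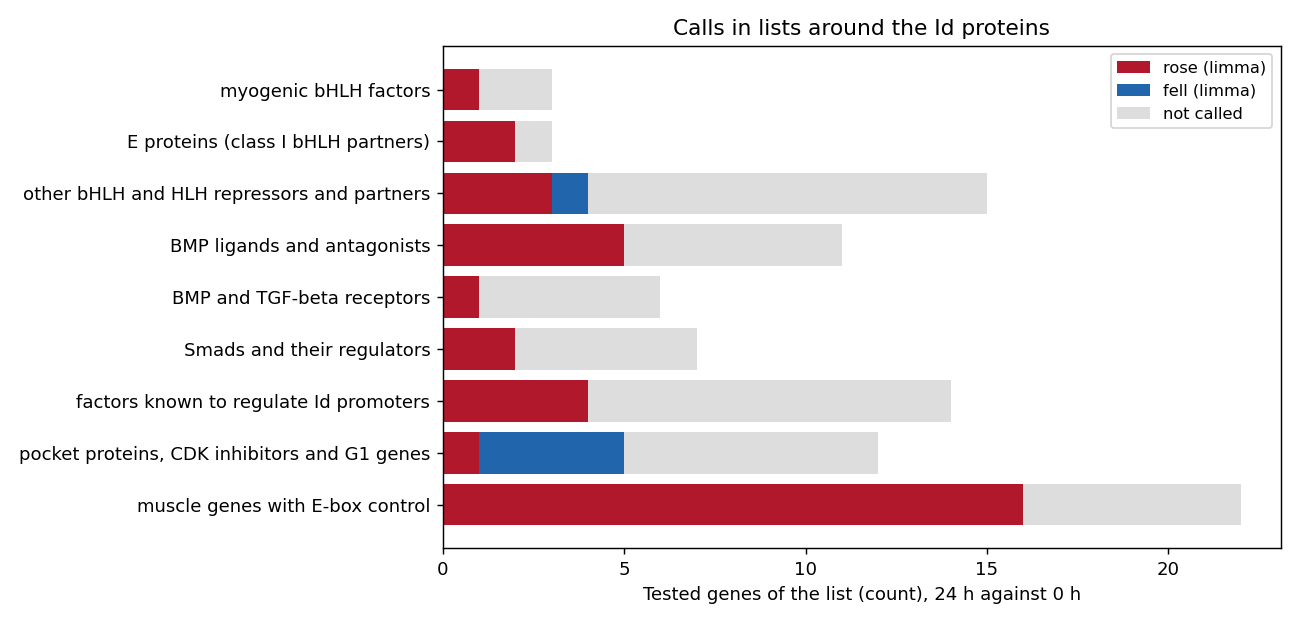
Number of tested genes (x axis) called higher, called lower or not called by limma at 24 h against 0 h in the 9 lists of partners, upstream factors and targets of the Id proteins. Rising calls outnumber falling calls in every list but that of pocket proteins, inhibitors and G1 genes, with 16 of 22 in the muscle list and 5 of 11 among ligands and antagonists.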

How the data were processed

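Total RNA of 6 samples was labelled with biotin and measured on 1 oligonucleotide array each. The deposited values are linear signal intensity per probe set; per the submitters' processing notes they came from MAS5 (version not stated), and detection calls were not used. Of 12488 probe sets, 66 controls were left out; of the remaining 12422, 10833 had 1 gene symbol, 396 several and 1193 none, and 10817 of the probe sets with 1 symbol were matched to the GRCm38.p6 annotation by gene identifier. Probe sets with a mean signal of at least the median of that mean were tested (6212), lower values were raised to the 25th percentile, and the fits ran on log2 values. The brightest probe set stood for a gene that had more than 1. Linear models in limma 3.58.1 under R 4.3.3 (eBayes, variance trend, 2-sided, Benjamini-Hochberg over all tested probe sets, called at an adjusted p under 0.05) fitted time with treatment as a block and outcome with 1 mean for each outcome and time, each with 2 residual degrees of freedom. The scripts were tested on simulated data. The alternatives were no filter, log2(value + 32), quantile and spike-in scaling (9 probe sets), no variance trend, no treatment block and leaving out each array.

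The Id genes and the gene lists were chosen with earlier results of these data known. Named are all genes of the myogenic and E protein lists and the BMP readings Smad6 and Smad7. Bambi is named without a reading. Also named are at most 5 called genes with the largest change in each other list, and the 5 genes most like each tested Id gene.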

Additional observations from a re-analysis of the deposited data

Results flagged for a closer look

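Id4 changed by 0.32 on the log2 scale over 24 h with wild-type p300, and by -0.52 with doxycycline and -0.60 with mutant p300, so the treatments given as surviving and as dying moved in opposite directions. The difference, doxycycline and mutant minus wild type, was -0.88. With log2(value + 32) it was -0.49, and with spike-in scaling -1.29. It was not tested in the filtered fit, because Id4 lay under the filter; with all probe sets in the fit the limma adjusted p was 0.669. The same arrangement of signs was found for 7.52% of the tested probe sets and 6.13% of all probe sets.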

How the results depend on the processing

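Over 24 h, the changes of Id1, Id2 and Id3 kept their direction and their calls in 11 of 12 alternatives each. Of these alternatives 6 left out 1 array, and both arrays of a treatment gave the same change, so the 6 are not all separate checks. Without the filter on dim probe sets the changes were again -1.21, -1.76 and -0.84 but were not called. Leaving out 1 array gave changes of -1.33 to -1.12 for Id1, -1.93 to -1.49 for Id2 and -0.95 to -0.72 for Id3; Id4, which was not tested, ran from -0.56 to -0.10 and was -0.15 with log2(value + 32). At 24 h, doxycycline and mutant minus wild type turned sign with spike-in scaling for Id2 (-0.25) and Id3 (-0.26) and was -0.50 for Id1. It ran from -0.30 to 0.035 for Id1 and from -0.031 to 0.26 for Id2 when 1 array was left out; none of these was called. At 0 h and in the interaction no Id gene was called under any alternative run. The number of probe sets called moved more. For time it was 1009, against 0 without the filter, 620 with spike-in scaling, 514 with no treatment block and 479 to 1283 without 1 array; spike-in scaling gave 141 higher and 479 lower, against 450 and 559, and moved the median change to -0.12. At 24 h between outcomes it was 48, against 192 without the filter, 419 with spike-in scaling (5 higher, 414 lower), 11 without the variance trend and 45 to 351 without 1 array. At 0 h it was 0, against 126 without the filter, 5 with spike-in scaling and 0 to 38 without 1 array. For the interaction it was 0, against 245, 1 and 6 to 43. The cause was not tested. The time fit paired the arrays by treatment. No paired analysis was possible by replicate number because the labels carry none. Each Id gene had 1 probe set, so no other probe set could be tried. The wild-type array at 24 h could not be left out of the comparisons that need it, nor that at 0 h.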
